A study of Mus musculus with 8 samples.

Results

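The WT astrocyte culture library (WT-AST, 1 library) was compared with the WT neural stem cell libraries (WT-NSC, 3 libraries), which together are 4 of the 8 samples of the series. The comparison covered the 40432 Ensembl gene ids shared by the astrocyte count table and the NSC count table. All 4 libraries came from wild type C57BL/6 mice labelled as 10 weeks old, and none carried the S89G mutation of dentin matrix protein 1 (DMP1) that the rest of the series examines. For the astrocyte cultures the methods state an age of 3 months in place of this. WT-AST was made from cortex cells passaged in DMEM with fetal bovine serum, and cultures of this kind were identified by staining for GFAP. WT-NSC came from the subventricular zone, were grown as neurospheres in DMEM/F12 with N2 supplement, and were identified by staining for SOX2 and nestin. The 3 WT-NSC libraries are labelled as a triplicate, and whether they came from separate mice or cultures is not stated, so the spread between them may be technical. Tissue, medium, cell type and read processing all differed between the groups and cannot be told apart.

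Neural stem cells of the adult subventricular zone are astrocyte-like cells that divide, express SoxB transcription factors and give rise to neurons and glia. Astrocytes take up glutamate and potassium, and their endfeet on blood vessels are rich in the water channel aquaporin 4. The meninges and vessels of the cortex hold fibroblasts, pericytes and smooth muscle cells, which deposit collagen, laminin and fibronectin, and primary cultures grown in serum can also hold microglia.

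WT-AST held 14008670 counts over genes, and each WT-NSC library between 2385557 and 2588130, so that genes of low level were less precisely known in WT-NSC. Levels are given as CPM, the share of a library's counts over the shared ids scaled to a common total, and 3 counts equalled 0.214 CPM in WT-AST and 0.402 CPM over the 3 WT-NSC libraries together. A gene was called at least 8-fold higher or lower when the log2 ratio of WT-AST to the WT-NSC mean, with 0.5 CPM added to each, was at least 3 or at most -3. No p-value is given for single genes, since an exact permutation of 1 library against 3 cannot go below 0.25. Of 12294 genes with at least 5 CPM in either group, 1161 (9.44%) were at least 8-fold higher in WT-AST and 1010 (8.22%) at least 8-fold lower. The median log2 ratio of all tested genes was -0.39, and 47.1% of them differed by less than 2-fold. Genes called higher took 24.4% of the reads of WT-AST and 0.564% of those of WT-NSC, and genes called lower took 0.451% and 11.51%. TMM scaling raised every ratio, with a shift of 0.54 in the median, and gave 1387 genes higher and 794 lower. Higher genes were then 63.6% of all calls in place of 53.5%. A list member that passed this level filter through 1 group alone had to differ, so the counts and medians given for lists are descriptions. Counts of members called are to be read beside the shares of all tested genes, 9.44% higher and 8.22% lower. Of the genes called higher, 957 passed through WT-AST alone, and of those called lower, 807 through WT-NSC alone. List medians are therefore also given over every member with a count in any of the 4 libraries, for which the median of all genes was -0.15. In the text below, "higher" and "lower" used of a single gene mean at least 8-fold, other genes are given by their values, and the levels of replicate libraries are in the order WT-NSC 1, 2 and 3.

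**Figure D1:**
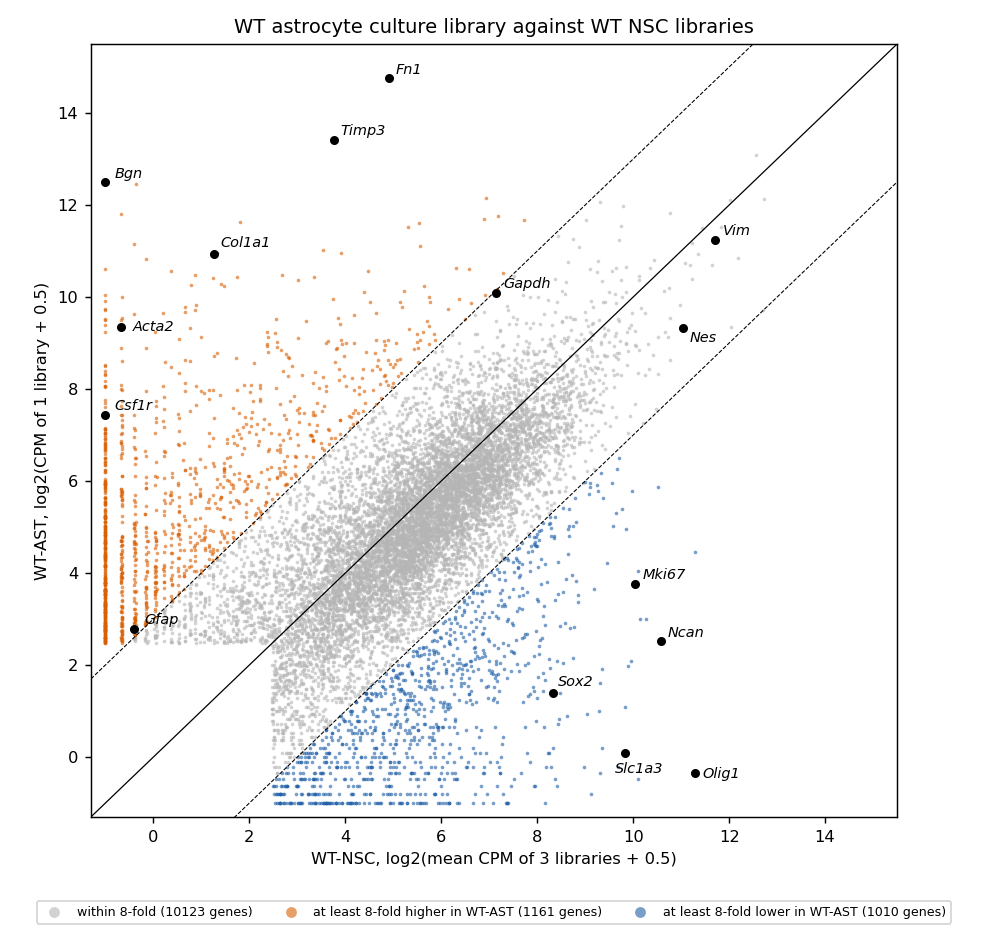
Each point is 1 of 12294 genes, placed by log2(CPM + 0.5), as the mean of the 3 WT-NSC libraries on the horizontal axis and in the WT-AST library on the vertical axis. The solid line marks equal levels and the dashed lines an 8-fold ratio of CPM + 0.5, beyond which lie 1161 genes above and 1010 genes below, and the column of points at the left edge holds genes with 0 counts in all WT-NSC libraries.

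Fn1, which encodes fibronectin (ENSMUSG00000026193, chromosome 1, 71585520 to 71653200, minus strand; positions are from GENCODE vM21 on GRCm38), was the most abundant gene of WT-AST at 386041 counts or 27562 CPM, against 26.5, 30.2 and 31.8 CPM in WT-NSC, and was 932-fold higher (95% counting interval 817 to 1068). Timp3, an inhibitor of metalloproteases (ENSMUSG00000020044, chromosome 10, 86300372 to 86349506, plus strand), stood at 10969 CPM against 15.1, 14 and 9.95 CPM and was 845-fold higher (95% counting interval 692 to 1042). Both genes were far outside the range of the 3 WT-NSC libraries. Bgn, the small proteoglycan biglycan (ENSMUSG00000031375, chromosome X, 73483602 to 73495933, plus strand), had 80542 counts in WT-AST and 0 in every WT-NSC library, which is at least 14319-fold higher when WT-NSC is set to 3 counts over the group, as for every bound of this kind given here. Ahnak, a large scaffold protein under the plasma membrane, had 78223 counts against 2, 0 and 0. With so few WT-NSC counts the interval was wide, and Ahnak was 20860-fold higher (95% counting interval 5774 to 172251). Counting intervals cover counting error only.

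Olig1 (ENSMUSG00000046160, chromosome 16, 91269772 to 91271933, plus strand) and Olig2, transcription factors of oligodendrocyte precursors and of transit amplifying progenitors, had 5927, 6128 and 6547 counts for Olig1 and 2555, 2843 and 2848 counts for Olig2 in WT-NSC. WT-AST held 4 and 3 counts of them, and Olig1 was 8719-fold lower (95% counting interval 3405 to 32005). Kcnc1, a voltage-gated potassium channel, had 1 count in WT-AST and 1270, 1430 and 1459 in WT-NSC. Slc1a3, the glutamate transporter GLAST of astrocytes and stem cells (ENSMUSG00000005360, chromosome 15, 8634124 to 8710764, minus strand), had 8 counts against 2099, 2385 and 2298. Gap43, a growth cone protein, had 5 counts against 1951, 2077 and 2105, and Gpm6a, a neural membrane glycoprotein, 5 against 1231, 1313 and 1203. All these WT-AST values were far below the lowest WT-NSC library although WT-AST was the deepest library.

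The label of WT-AST was then checked against its markers. Of 24 astrocyte markers, 19 passed the level filter, 10 of them lower and 2 higher in WT-AST (8.22% and 9.44% of all tested genes), with a median log2 ratio of -3.17 for those that passed and -2.48 for the 24 with a count. Their summed level was 1651 CPM in WT-AST and 2917, 2944 and 2985 CPM in WT-NSC, and Apoe alone made 1048 CPM of the WT-AST sum. Gfap, the intermediate filament by which such cultures are recognised (ENSMUSG00000020932, chromosome 11, 102887336 to 102900912, minus strand), was higher, with 90 counts (6.43 CPM) against 0, 1 and 1 counts, which was 24-fold higher (95% counting interval 6.45 to 201). This call rested on few WT-NSC counts, and its log2 ratio was 3.18, 2.96 without WT-NSC 1 and 1.90 with a pseudocount of 2 CPM. Its level was nevertheless low, at 3.44 CPM per kilobase of the gene length implied by the deposited FPKM values, against 1630.1 for another filament gene, Vim, in the same library. Aqp4, aquaporin 4, had 8 counts in WT-AST and 3, 5 and 4 in WT-NSC, so that it was near 0 in all 4 libraries and not tested. Aldh1l1, a folate enzyme widely used as a pan-astrocyte marker, had 3.36 CPM against 299, 312 and 309 CPM, and S100b 4.57 CPM against 3.78, 3.49 and 7.16 CPM. Gja1, connexin 43, was 83.2 CPM against 21.4, 28.3 and 23.9 CPM, outside the WT-NSC range but within 8-fold, and Apoe was the second astrocyte marker called higher, at 1048 CPM against 107, 126 and 128 CPM. Among the members called lower, Hepacam and Mlc1, partners in astrocyte junctions, had 8 and 2 counts against 741, 769 and 767 for Hepacam and 406, 454 and 444 for Mlc1.

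The library labelled WT-AST thus went against its label for Slc1a3, Aldh1l1 and Aqp4, and genes of mesenchymal, mural and myeloid cells were high in it. The other astrocyte library of the same table, from S89G-DMP1 mice, held 901 counts of Gfap, 4051 of Aqp4 and 3877 of Slc1a3, so the pipeline that made the table could count these genes. The genes of other cell types that were high in WT-AST are given list by list with the fibroblast, mural, myeloid and endothelial markers. In bulk RNA, fewer cells of a type and less RNA per cell cannot be told apart. Their part in the differences was not tested, and each difference below is one between the library labelled WT-AST and the WT-NSC libraries.

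**Figure D2:**
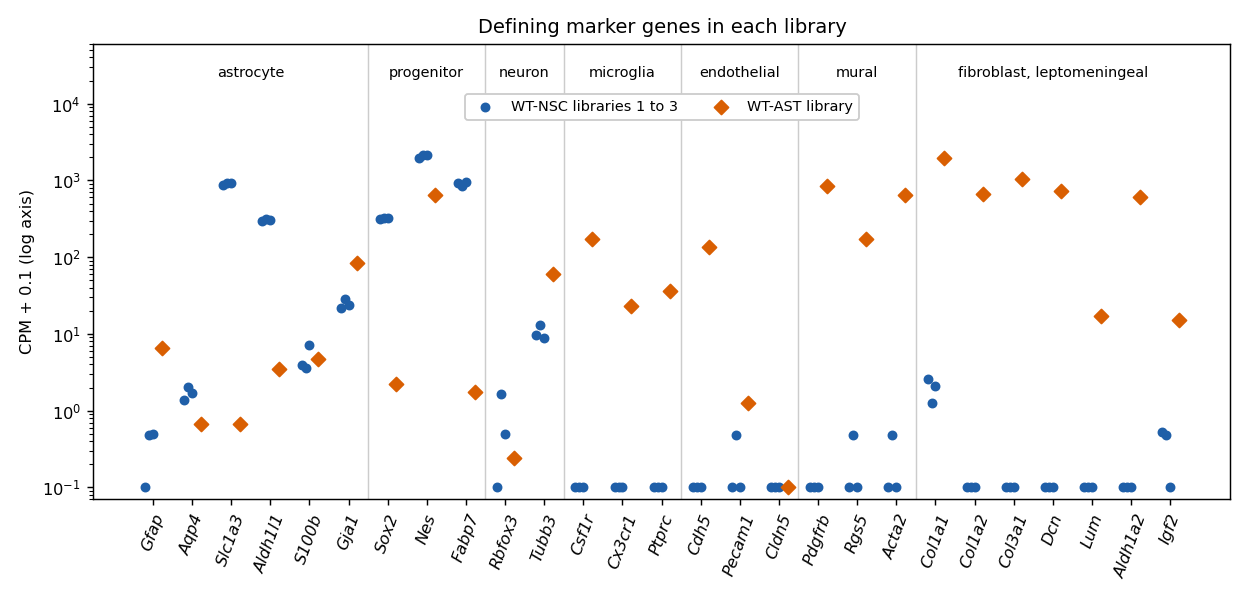
Levels of 27 defining marker genes as CPM + 0.1 on a log axis, with the 3 WT-NSC libraries as circles and the WT-AST library as a diamond. Slc1a3, Aldh1l1, Sox2 and Fabp7 lay far lower in WT-AST, Csf1r, Pdgfrb, Acta2 and the collagen genes far higher, and points at 0.1 are 0 counts.

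By counts, neural progenitor markers had the lowest median of the 12 marker lists. Of 18 genes, 16 passed, 13 were lower (12 without WT-NSC 1), 0 were higher and the median log2 ratio was -6.28 for those that passed and -5.42 for the 18 with a count (-6.47 for those that passed, with the 3 genes at 0 counts in WT-AST set to 3 counts). Sox2, the transcription factor that maintains stem cell identity (ENSMUSG00000074637, chromosome 3, 34650405 to 34652461, plus strand), had 2.14 CPM in WT-AST against 314, 323 and 323 CPM, and was 149.6-fold lower (95% counting interval 104 to 222). Fabp7, a fatty acid binding protein of radial glia, had 1.64 CPM against 931, 847 and 946 CPM. Nes, which encodes nestin, was 645 CPM against 1985, 2115 and 2173 CPM (log2 ratio -1.70), Egfr, the EGF receptor, 101 against 558, 557 and 543 CPM, and Vim 2427 against 3379.7, 3290.2 and 3411 CPM. These 3 genes lay below every WT-NSC library but within 8-fold. With the deposited FPKM and TPM values in place of counts, 14 progenitor markers could be compared and 8 of them were lower, against 13 of 16 by counts. Their median was then -4.45, above that of the neuron markers at -5.47. The TPM values limit this comparison, since of 9846 tested genes with at least 20 counts in each WT-NSC library 61 were listed at 0 TPM in all of them, 2 progenitor markers and 8 mitochondrially encoded genes included.

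Of 12 SoxB, SoxC, SoxD and SoxE genes, 11 passed, 8 were lower and 0 higher, with a median log2 ratio of -6.29 for those that passed and -5.96 for the 12 with a count. Sox1 and Sox3, the SoxB partners of Sox2, had 0 counts in WT-AST against 92, 130 and 126 for Sox1 and 160, 161 and 214 for Sox3, at least 217-fold and 334-fold lower with WT-AST set to 3 counts. Sox6, Sox8 and Sox11 had log2 ratios of -6.49, -6.29 and -5.62, while Sox9, which glia share with chondrocytes and other mesenchymal cells, was 38.5 CPM against 230.4, 199 and 228 CPM (log2 ratio -2.49). Of 21 forebrain transcription factors 14 passed and 5 were lower, among them Sall3 (1.36 against 376, 410.1 and 395 CPM) and Pou3f3 (3.64 against 365, 363 and 393 CPM). Nfia, Nfib and Nfix, which act in gliogenesis, had log2 ratios of -2.01, -1.54 and -0.84.

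Of 16 neuron markers 10 passed, 7 were lower (6 of these passed through WT-NSC alone, and 6 were lower without WT-NSC 1) and 1, Stmn2, was higher, and the median log2 ratio was -5.77 for those that passed and -2.43 for the 16 with a count. Map2, a dendritic microtubule protein, had 7.5 CPM against 1218, 1065 and 1129.7 CPM, and Elavl4, an RNA-binding protein of neurons, 1 count against 120, 97 and 106. Stmn2, a microtubule regulator, had 272 counts in WT-AST and 0 in every WT-NSC library, and Tubb3, the neuronal tubulin, 60.7 CPM against 9.67, 12.8 and 8.76 CPM (log2 ratio 2.49). Rbfox3, the NeuN antigen of mature neurons, had 2 counts in WT-AST and 0, 4 and 1 in WT-NSC. Of 14 oligodendrocyte lineage markers 6 passed and 1, Bcas1, was lower, and Mbp, a main myelin protein, was at 8.0 CPM in WT-AST with a log2 ratio of 2.20. Of 13 Schwann and neural crest markers 8 passed and 2 were higher, Tfap2a and Tfap2b, which are also expressed in craniofacial and meningeal mesenchyme.

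Of 20 genes of glutamate handling 18 passed, 10 were lower and 1 higher, with a median log2 ratio of -3.37 for those that passed and -3.10 for the 20 with a count (-3.92 for those that passed, with the 3 genes at 0 in WT-AST at their bound). Slc1a2, the transporter GLT-1, had 3.64 CPM in WT-AST against 158, 126 and 162 CPM. Gria2, an AMPA receptor subunit, had 2 counts against 883, 842 and 823, and Grm5, a metabotropic receptor, 0 against 700, 695 and 733. Grm5 also had 0 counts in the S89G-DMP1 astrocyte library, so whether that pipeline counted it at all was not shown by these libraries. Glul, glutamine synthetase, was 303 CPM against 129, 136 and 133 CPM, and Slc7a11, the cystine and glutamate exchanger, was the member called higher (265 against 34.5, 27.5 and 30.6 CPM).

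Of 12 chondroitin sulfate proteoglycans of brain matrix and their partners 9 passed, 5 were lower, 4 within 8-fold and 0 higher, with a median log2 ratio of -5.50 for those that passed and -2.15 for the 11 with a count. Ncan and Bcan, the lecticans neurocan and brevican, had 5.21 and 2.57 CPM in WT-AST against 1467, 1537 and 1579.9 CPM for Ncan and 623, 633 and 642 CPM for Bcan in WT-NSC. Ptprz1, a receptor phosphatase and the source of phosphacan, had 21.5 CPM against 2538, 2551 and 2427 CPM. Tnc, tenascin C, was abundant in both groups (1841 against 4465, 4856 and 4719 CPM, log2 ratio -1.35), and Cspg4, the NG2 proteoglycan, was 38.7 against 173, 172 and 176 CPM.

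**Figure D3:**
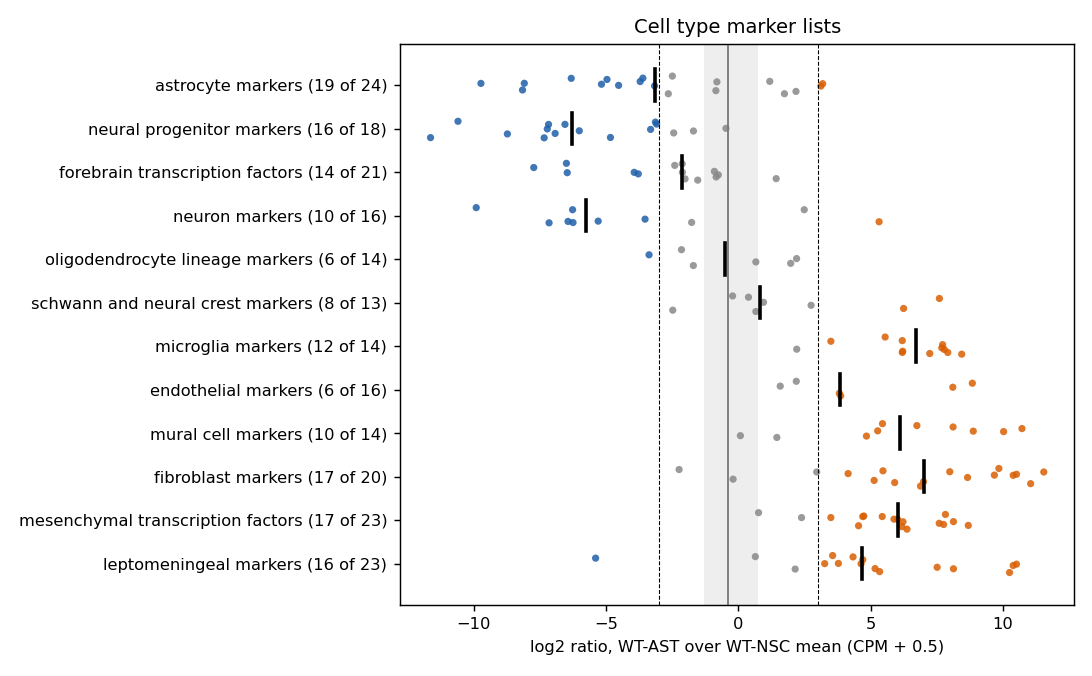
Log2 ratio of WT-AST to the WT-NSC mean for the members of 12 marker lists that passed the level filter (how many of how many is given with each name), 1 list per line. Points at or beyond the dashed lines at -3 and 3 are coloured, black bars are list medians, the grey line is the median of all genes (-0.39) and the grey band their middle 50 percent. The medians of the astrocyte, progenitor, forebrain and neuron lists lie below 0 and those of the microglia, mural, fibroblast, mesenchymal and leptomeningeal lists above 3, also over every member with a count, while that of the endothelial list was 1.91 over the 14 with a count.

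Of 20 fibroblast markers 17 passed, 14 were higher (12 of these passed through WT-AST alone) and 0 lower, and the median log2 ratio was 6.99 for those that passed and 6.39 for the 20 with a count (7.30 for those that passed, with the 5 genes at 0 counts in WT-NSC at their bound). The list summed to 36304 CPM in WT-AST and to 288, 278 and 303 CPM in WT-NSC. Most of the WT-AST sum was Fn1, whose level is given above. Col1a1 and Col1a2, the chains of type I collagen (ENSMUSG00000001506, chromosome 11, 94936224 to 94953042, plus strand, and ENSMUSG00000029661, chromosome 6, 4504814 to 4541544, plus strand), stood at 1951 and 667 CPM in WT-AST. In WT-NSC Col1a1 had 6, 3 and 5 counts and Col1a2 none, so that Col1a2 was at least 1662-fold higher. Col3a1, the type III chain, and Dcn, the collagen-binding proteoglycan decorin, had 14756 and 10196 counts in WT-AST and 0 in WT-NSC, at least 2623-fold and 1813-fold higher. Tnxb, tenascin X of connective tissue, had 31753 counts against 0, 1 and 1. The exceptions were Thy1, a surface glycoprotein that neurons share, at 131 CPM against 148, 147 and 156 CPM, Fbln1 at 6.78 against 35.3, 32.9 and 33.4 CPM, and Pdgfra at 125 against 15.6, 13.2 and 18.3 CPM.

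Of 23 transcription factors of mesenchyme 17 passed, 15 were higher (14 of these passed through WT-AST alone) and 0 lower, with a median log2 ratio of 6.02 for those that passed and 5.09 for the 22 with a count. Foxd1, Foxc1 and Foxc2, forkhead factors of mesenchyme around vessels and brain, had 2878, 2411 and 1504 counts in WT-AST, and WT-NSC had 0 of Foxd1 and Foxc2 and 11, 12 and 23 of Foxc1. Tbx18 and Twist1 had 1950 and 405 counts against 0, at least 347-fold and 72-fold higher. Prrx1, which neural progenitors also express, was an exception, at 98.2 CPM against 53.8, 56.6 and 62.5 CPM. Of 23 leptomeningeal markers, 16 passed, 13 were higher (10 of these passed through WT-AST alone) and 1 lower. Their median log2 ratio was 4.67 for those that passed and 3.67 for the 22 with a count. Aldh1a2, the retinoic acid synthesis enzyme of meninges (ENSMUSG00000013584, chromosome 9, 71215789 to 71296243, plus strand), had 8497 counts against 0, at least 1511-fold higher, and Cyp26b1, which degrades retinoic acid, 25427 counts against 1, 2 and 0. Ptgds, the prostaglandin D synthase abundant in arachnoid and glia, was the leptomeningeal marker called lower, with 4 counts against 72, 71 and 100, and Slc6a13, a GABA transporter of the pia, had 2 counts and was not tested. Several of these genes are shared between the fibroblast, collagen and leptomeningeal lists, so the lists are not separate evidence. Other lists share members too, such as Fn1 and Postn (fibroblast and matrix glycoprotein), Itgam (microglia and integrin) and Hepacam and Mlc1 (astrocyte and endfoot).

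Collagens outside the network of basement membranes numbered 25, of which 19 passed, 12 were higher and 1, Col9a3, lower, with a median log2 ratio of 4.91 for those that passed and 2.48 for the 25 with a count. Col5a1 and Col5a2, which nucleate collagen fibrils, were at 956 and 953 CPM against 58, 48.1 and 54.5 CPM for Col5a1 and 24.4, 20.9 and 22.3 CPM for Col5a2. Col8a1, a short-chain collagen of vessel walls, had 10405 counts against 1, 0 and 0. Per kilobase, Col1a1 was the highest of these genes in WT-AST at 1096, above Col3a1 at 583, Col5a2 at 320.3 and Col1a2 at 292.

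Basement membrane genes differed by chain. Of 23 genes 18 passed, 11 were higher and 0 lower (10 higher without WT-NSC 3), with a median log2 ratio of 3.54 for those that passed and 2.90 for the 23 with a count. Col4a1 and Col4a2, the ubiquitous type IV chains, had 2958 and 2075 CPM against 40.4, 36.4 and 40.6 CPM for Col4a1 and 9.25, 10.9 and 13.1 CPM for Col4a2. Nid1, nidogen, which links laminin to collagen IV, had 1377 CPM against 3.36, 1.94 and 3.18 CPM, and Hspg2, perlecan, 3318 CPM against 108, 122 and 123 CPM. Among laminin chains Lama2 (439 against 2.52, 1.55 and 1.99 CPM), Lamb1 (538 against 46.3, 45.4 and 47.8 CPM) and Lamc3 (2427 counts against 0, 0 and 1) were higher. Agrn, agrin, was lower in value but within 8-fold (218 against 547, 555 and 578 CPM).

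All 37 matrix glycoproteins and crosslinking enzymes passed, 22 were higher and 1, Fbn2, was lower, with a median log2 ratio of 4.58. Sparc, which binds collagen and calcium, was 3479 CPM against 145, 146 and 143 CPM, and Thbs1, thrombospondin 1, 3181 CPM against 4.2, 1.94 and 2.79 CPM. Ltbp2, a fibrillin-binding protein, and Lox, lysyl oxidase, had 21718 and 13519 counts against 0, at least 3861-fold and 2403-fold higher. The fibrillins went in opposite directions, with Fbn1 at 1562 CPM against 95.4, 95 and 95.5 CPM and the developmental form Fbn2 at 1.5 CPM against 647, 606 and 609 CPM. Fbn2 was named after its value was seen. Of 12 small leucine-rich proteoglycans 8 passed, each through WT-AST alone, and the median log2 ratio of the 10 with a count was 5.15. Among them were Prelp (21283 counts against 2, 3 and 1) and Fmod, fibromodulin (4021 against 0).

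Among 20 metalloproteases and inhibitors 18 passed, 10 were higher and 3 lower. Mmp2, gelatinase A, and Mmp14, its membrane-bound activator, were at 639 and 677 CPM against 1.26, 1.16 and 1.19 CPM for Mmp2 and 13.9, 13.6 and 15.52 CPM for Mmp14, and Timp2 at 4560.2 against 123, 113 and 127 CPM. Mmp15, another membrane-type protease, was lower, at 7.5 CPM against 1191, 1237 and 1294 CPM. Of 26 integrins 19 passed, 9 were higher and 2 lower. The shared beta 1 chain Itgb1 was within 8-fold (2408 against 843, 829 and 814 CPM), while Itgb5 (778 against 13.9, 22.5 and 16.7 CPM) and Itga8 (292 against 16, 14 and 12.3 CPM) were higher. Itgb8, the integrin with which neural cells activate latent TGF-beta, was lower (7.85 against 282, 279 and 274 CPM), as was Itga4. Of the 9 integrins called higher, Itgam, Itgb2, Itgal and Itgax are chains of leukocyte integrins.

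**Figure D4:**
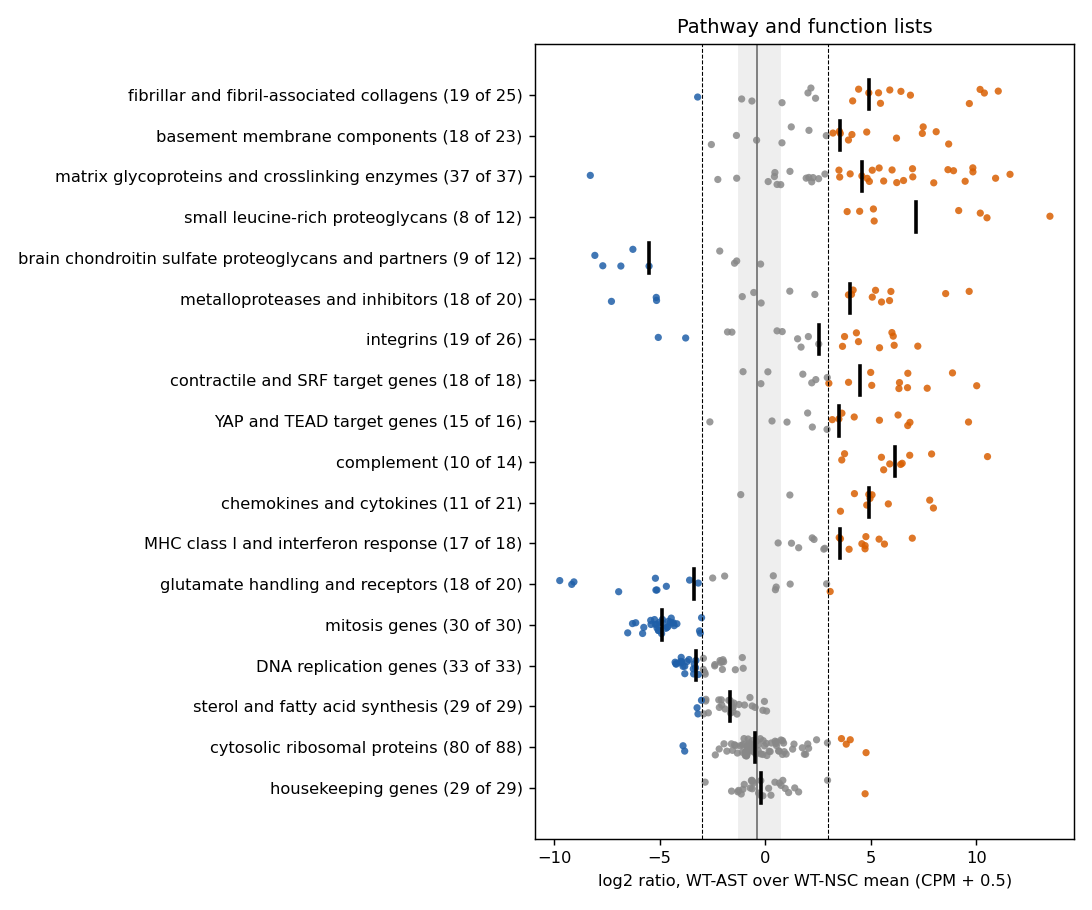
Log2 ratio of WT-AST to the WT-NSC mean for members of 18 pathway and function lists that passed the level filter, drawn as for the marker lists. The matrix glycoprotein, small leucine-rich proteoglycan, contractile and complement medians lie above 3, also over every member with a count. Over those members the collagen, basement membrane and chemokine medians were 2.48, 2.90 and 2.92. The brain chondroitin sulfate proteoglycan median was -5.50 for those that passed and -2.15 over members with a count. All 30 mitosis genes lie below -3, and the ribosomal and housekeeping medians lie close to the median of all genes.

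Of 14 mural cell markers 10 passed, 8 were higher, each passing through WT-AST alone, and 0 lower, with a median log2 ratio of 6.09 for those that passed and 5.26 for the 13 with a count and a summed level of 3206 CPM in WT-AST and 78.2, 92.6 and 82.8 CPM in WT-NSC. Pdgfrb, the PDGF receptor of pericytes and fibroblasts, had 11765 counts against 0, at least 2092-fold higher, and Rgs5, a pericyte regulator of G protein signaling, 2431 counts against 0, 1 and 0. Acta2, smooth muscle actin (ENSMUSG00000035783, chromosome 19, 34241090 to 34255590, minus strand), had 9152 counts against 0, 1 and 0, and Tagln, transgelin, 17464 against 7, 5 and 4. All 18 contractile genes and targets of serum response factor (SRF) passed, 11 were higher and 0 lower, with a median log2 ratio of 4.48. Myl9, a light chain of smooth muscle myosin, was 201 CPM against 2.1, 0.388 and 1.59 CPM, Cald1, caldesmon, 3291 against 205, 214 and 217 CPM, and Actn1, alpha-actinin, 803 against 24.4, 26 and 23.5 CPM. Srf itself was 59.8 CPM in WT-AST and 50.9, 54.7 and 58.1 CPM in WT-NSC, a log2 ratio of 0.13. Of 16 genes known as targets or parts of YAP and TEAD signaling 15 passed and 9 were higher, among them Ccn2 (1989.8 against 1.68, 1.55 and 2.79 CPM), Axl (562 against 5.89, 3.88 and 4.38 CPM) and Ccn1 (709 against 7.15, 10.1 and 8.36 CPM).

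The promoters of contractile genes are shown because SRF binds a known element there, the CArG box. Promoter windows of 300 bases, from 250 before to 50 after the start, were taken from RefSeq (GRCm38.p6), which held 16 of the 18 contractile genes. The CArG box was searched on both strands as the exact pattern CCWWWWWWGG, where W is A or T. Of these 16 genes, 4 (25%) held at least 1 match, Cnn2, Myl9, Srf and Vcl, against 1.81% of all 27025 symbols in the set. The 200 bases before the start of Myl9, Cnn2 and Acta2 follow 5′ to 3′ with the match in capitals.
Myl9 (chr2:156775264-156775463, plus strand): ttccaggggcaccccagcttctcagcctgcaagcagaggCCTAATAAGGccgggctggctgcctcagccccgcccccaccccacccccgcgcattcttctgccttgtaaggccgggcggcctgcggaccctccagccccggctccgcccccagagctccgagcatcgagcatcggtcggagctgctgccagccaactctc
Cnn2 (chr10:79988400-79988599, plus strand): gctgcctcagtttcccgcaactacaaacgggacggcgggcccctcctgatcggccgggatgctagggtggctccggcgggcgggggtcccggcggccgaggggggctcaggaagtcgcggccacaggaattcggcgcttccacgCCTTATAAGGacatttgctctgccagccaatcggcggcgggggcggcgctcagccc
Acta2 (chr19:34255374-34255573, minus strand): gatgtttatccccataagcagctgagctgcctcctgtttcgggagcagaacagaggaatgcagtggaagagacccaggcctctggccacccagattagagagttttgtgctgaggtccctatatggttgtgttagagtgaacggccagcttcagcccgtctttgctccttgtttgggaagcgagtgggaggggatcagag
Myl9 and Cnn2 (log2 ratios 6.76 and 6.34) hold a match in the bases shown, and Acta2 (log2 ratio 10.02) holds no exact match in its window. The Acta2 bases shown do hold ccctatatgg and ccttgtttgg, each 1 base off the pattern, and such near matches were not searched for in any gene. Srf and Vcl also hold matches and had log2 ratios of 0.13 and 2.40, within 8-fold. A match is a description of the sequence, and these genes were chosen for printing after the matches were seen.

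Of 14 microglia markers 12 passed, 11 were higher (10 of these passed through WT-AST alone) and 0 lower, and the median log2 ratio was 6.72 for those that passed and 6.20 for the 14 with a count (7.02 for those that passed, with the 10 genes at 0 counts in WT-NSC at their bound). Csf1r, the receptor on which microglia depend, had 2423 counts in WT-AST and 0 in every WT-NSC library, at least 431-fold higher. Cx3cr1, the fractalkine receptor, and Ptprc, CD45, had 320 and 505 counts against 0, and Tmem119, found on microglia more than on other macrophages, 1434 counts against 0. C1qa, C1qb and C1qc, the chains of complement C1q, had 1533, 1680 and 1466 counts against 0, and Lyz2, lysozyme, 11966 against 0. Summed over the 14 markers the level was 957 CPM in WT-AST, and 20.2, 19.8 and 20.3 CPM in WT-NSC. The S89G-DMP1 astrocyte library of the same table also held these genes, with 3522 counts of Csf1r.

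Of 14 complement genes 10 passed, each through WT-AST alone, and the median log2 ratio of the 13 with a count was 5.61. Serping1, the C1 inhibitor, had 2087 counts against 0, 0 and 1, and C4b 1241 against 1, 3 and 7. Of 21 chemokines and cytokines 11 passed and 9 were higher, among them Cxcl12 (394 against 0.841, 0.388 and 1.99 CPM), Csf1, the ligand of CSF1R (1121 against 40.8, 33.7 and 35.8 CPM), and Tnfrsf11b, osteoprotegerin (1549 counts against 0). Cx3cl1, fractalkine, was lower in value but within 8-fold (60.6 against 134, 130.2 and 143 CPM). Of 18 genes of MHC class I and the interferon response 17 passed and 10 were higher, with B2m at 945 CPM against 44.6, 31.4 and 29.1 CPM and Ifit3 at 871 counts against 0.

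Of 16 endothelial markers 6 passed, each through WT-AST alone, and the median log2 ratio of the 14 with a count was 1.91. Of the 6, 4 were higher, and the list summed to 1032 CPM in WT-AST and 7.99, 10.47 and 7.56 CPM in WT-NSC. Most of the WT-AST sum was Eng. Cdh5, VE-cadherin, had 1917 counts against 0, and Eng, endoglin, which mesenchymal cells also express, 11770 counts against 3, 4 and 3. Pecam1 and Cldn5, the other defining markers, had 16 and 0 counts in WT-AST, and 0, 1 and 0 for Pecam1 and 0, 0 and 0 for Cldn5 in WT-NSC. Of the 3 defining endothelial markers, 1 was therefore high in WT-AST and 2 were at or near 0.

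All 30 mitosis genes passed and all 30 were lower in WT-AST, with log2 ratios from -6.51 to -3.01 and a median of -4.88, against a share of 8.22% lower among all tested genes. Together they made 164 CPM in WT-AST and 5751, 5541 and 5634 CPM in WT-NSC. Mki67, the Ki-67 antigen of dividing cells (ENSMUSG00000031004, chromosome 7, 135689784 to 135716361, minus strand), was 13.1 CPM in WT-AST against 1064, 1018 and 1082 CPM, Ccnb1, cyclin B1, 1.78 against 211, 208 and 203 CPM, and Top2a, topoisomerase II alpha, 18.1 against 725, 684 and 701 CPM. Ccnb1 was 116-fold lower (95% counting interval 78.4 to 180.1) and had the largest ratio of the list. Every member lay below the lowest WT-NSC library, 28 of 30 were at least 8-fold lower without WT-NSC 1, and 27 under TMM scaling.

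DNA replication genes were lower by less. All 33 passed, 18 were lower, 0 higher and all 33 had a ratio below 0, with a median of -3.28 and a range from -4.26 to -1.04, and 12 were lower under TMM scaling. Rrm2, the regulated subunit of ribonucleotide reductase, was 21 CPM against 420.5, 388 and 396 CPM, and Mcm2, of the replicative helicase, 17.8 against 269, 299 and 292 CPM. Pcna, the sliding clamp, was within 8-fold (41 against 319.98, 320.2 and 302 CPM), as was Rrm1 (65.3 against 333, 354 and 339 CPM). The G1 regulators did not follow this pattern. Of 16 cyclin D genes, inhibitors and p53 genes 15 passed, 1 was higher and 1 lower. Ccnd1 was 1348 CPM against 2359, 2483 and 2351 CPM, Ccnd2 2322 against 2416, 2387 and 2360.4 CPM and Cdkn1a, the inhibitor p21, 405 against 525, 500.4 and 549.7 CPM. Cdkn2c, the inhibitor p18, was the member called lower (7.85 against 136, 136 and 151 CPM), and Gadd45b, a stress-induced gene, the member called higher (log2 ratio 3.01, and 2.68 without WT-NSC 3). The ratios of Ccnd2 and Cdkn1a changed sign under TMM scaling, to 0.51 and 0.17.

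**Figure D5:**
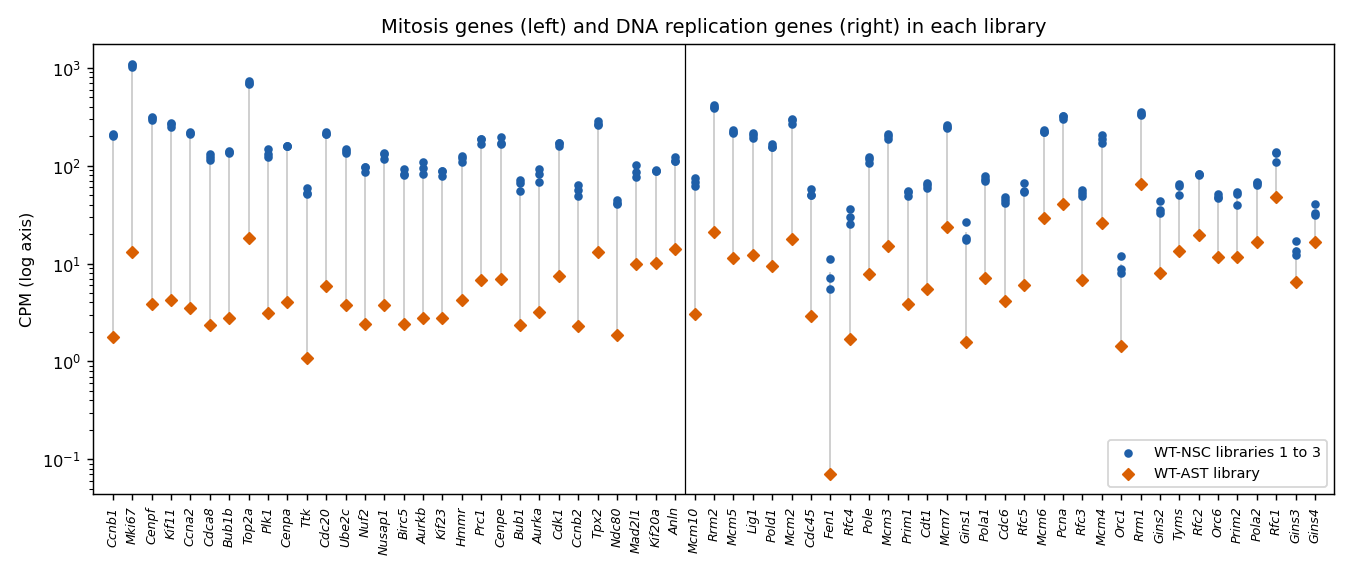
CPM on a log axis of the 30 mitosis genes (left of the line) and 33 DNA replication genes (right of the line), each sorted by log2 ratio, with the 3 WT-NSC libraries as circles and WT-AST as a diamond. The WT-AST value lay below all 3 WT-NSC values for each of the 63 genes.

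Promoters of the mitosis genes are shown because the whole list was lower and its genes are known to share an element, the cell cycle genes homology region (CHR, TTTGAA), to which the DREAM and MuvB complexes bind. RefSeq held windows for 26 of the 30 genes. On either strand 19 of these 26 (73.1%) held at least 1 TTTGAA, against 20.2% of all symbols, and 14 (53.8%) held at least 2 matches of CCAAT, the element of NF-Y, against 13.3% of all symbols. Of the 16 contractile genes with a window, 7 (43.8%) also held at least 2 matches of CCAAT, so this was not particular to the mitosis genes. The 100 bases before the start of 5 genes with a match there follow with TTTGAA, or its complement TTCAAA, in capitals.
Cdk1 (chr10:69352913-69353012, minus strand): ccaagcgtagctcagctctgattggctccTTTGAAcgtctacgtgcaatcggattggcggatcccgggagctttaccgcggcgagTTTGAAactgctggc
Top2a (chr11:99024190-99024289, minus strand): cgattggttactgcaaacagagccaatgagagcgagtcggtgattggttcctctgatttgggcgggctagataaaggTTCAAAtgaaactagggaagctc
Cdc20 (chr4:118437344-118437443, minus strand): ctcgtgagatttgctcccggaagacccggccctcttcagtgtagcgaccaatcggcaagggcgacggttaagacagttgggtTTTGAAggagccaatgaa
Kif11 (chr19:37376282-37376381, plus strand): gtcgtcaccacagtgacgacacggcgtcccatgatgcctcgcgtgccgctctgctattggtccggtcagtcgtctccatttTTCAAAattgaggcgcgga
Ube2c (chr2:164769829-164769928, plus strand): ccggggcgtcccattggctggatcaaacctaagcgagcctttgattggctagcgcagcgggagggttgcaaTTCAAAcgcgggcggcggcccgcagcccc
Their levels in WT-AST were 7.5, 18.1, 5.93, 4.21 and 3.78 CPM, and their log2 ratios -4.40, -5.24, -5.05, -5.80 and -5.04. The 7 genes with a window but no match were lower as well, and the genes printed were chosen after the matches were seen.

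Sterol and fatty acid synthesis genes mostly had ratios below 0 within 8-fold. All 29 passed and 28 had a ratio below 0, with a median of -1.64. Of the 29, 3 were lower, Fdps, Elovl6 and Dhcr7 (the last at -2.98 without WT-NSC 2), against 8.22% of all tested genes. Hmgcs1, an early enzyme of the mevalonate pathway, was 189 CPM against 1464, 1459.8 and 1355 CPM, and Scd2, a fatty acid desaturase of brain, 655 against 4404, 4115 and 4174 CPM. Under TMM scaling 0 genes were lower and the list median was -1.10.

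By counts, medians of genes used in every cell lay near that of all genes. Of 29 housekeeping genes 1, B2m, was higher and 0 lower, with a median of -0.22, and Gapdh was 1091 CPM against 131, 144 and 145 CPM, just under the threshold at 2.96. Of 88 cytosolic ribosomal protein genes 80 passed, 4 higher and 2 lower, with a median of -0.50 for those that passed and -0.46 for the 86 with a count. With the deposited FPKM and TPM values 0 of the ribosomal genes were higher and 4 lower, and their median was -1.14 against -0.29 for all genes. The signs of the housekeeping and ribosomal medians turned under TMM scaling, to 0.33 and 0.05. The 12 mitochondrially encoded genes that passed had a median of 0.24, which became 9.06 with FPKM and TPM values, under which 4 could be compared. By counts mt-Co1 was 8728 CPM against 6912, 5029 and 6083 CPM, while mt-Atp6 was 1.93 against 302, 264 and 195 CPM. The gene mt-Atp6 overlaps mt-Atp8 and had 16 counts in the other astrocyte library too. Whether the programs divided reads of overlapping genes differently was not tested, and the value of mt-Atp6 is uncertain.

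Signaling genes were divided by family. Of 29 TGF-beta and BMP genes 26 passed, 13 were higher and 1, Chrdl1, lower, with a median of 3.22 for those that passed and 2.77 for the 28 with a count. Tgfb1 had 948 counts against 1, 0 and 2, its receptor Tgfbr2 247 CPM against 12.6, 13.6 and 8.76 CPM, and the antagonist Grem1 2356 counts against 0. Of 34 Wnt genes 25 passed, 9 were higher and 7 lower. The ligands Wnt7a and Wnt7b, which neural progenitors supply to brain vessels, were lower (0.214 and 0.571 CPM against 48.4, 50.004 and 49.8 CPM for Wnt7a and 58.4, 56.6 and 56.5 CPM for Wnt7b), and the antagonists Dkk2 and Dkk3 higher (3752 counts against 0 and 5439 against 0, 0 and 1). Axin2, a common target of the pathway, was lower (6.0 against 74.4, 68.2 and 61.7 CPM) and was named after its value was seen. In the Notch pathway 11 of 18 genes passed, and Dll1, Dll3, Lfng and Notch1 were lower and Notch4 higher. Notch1 and Lfng were at 42 and 17.1 CPM against 376, 372 and 369.8 CPM for Notch1 and 182, 195 and 203 CPM for Lfng, and under TMM scaling 2 genes of the list were lower in place of 4.

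Of 39 Hox genes 2 passed, Hoxb9 and Hoxc13, each through WT-AST alone (277 and 164 counts against 0, 0 and 0 for Hoxb9 and 0, 0 and 0 for Hoxc13), and the median log2 ratio of the 30 Hox genes with a count was 0.78. Of 68 replication-dependent histone genes 10 passed, 7 were higher (5 of these passed through WT-AST alone) and 1 lower, and with the deposited FPKM and TPM values 3 were higher.

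In the IGF system 5 of 13 genes were higher and 1 lower. Igfbp7 was 1362 CPM against 2.1, 2.33 and 1.19 CPM and Igf1 488 against 4.2, 4.65 and 5.17 CPM, while Igfbp3 was the member called lower (16.1 against 1081, 1116 and 1105 CPM). Among 17 growth factor receptors 15 passed, 3 were higher (Pdgfrb, Met and Fgfr2) and 3 lower. The neurotrophin receptors Ntrk2 and Ntrk3 were lower (1.29 and 1.93 against 339, 360.1 and 349.9 CPM for Ntrk2 and 123, 131 and 121 CPM for Ntrk3), as was Erbb4. Of 34 axon guidance and adhesion genes 32 passed, 11 were lower, such as Cntn1 (1.21 against 276, 233 and 249 CPM) and Cdh4 (2.21 against 283, 287 and 267 CPM), and 6 higher, such as the secreted Slit2 (5345 counts against 3, 2 and 0) and Slit3 (1177 against 0). Of 19 imprinted genes 14 passed, and Meg3 and Rian, noncoding RNAs of 1 locus, had 7665 and 3944 counts in WT-AST against 3, 1 and 3 for Meg3 and 4, 2 and 2 for Rian. Mest (3.93 against 415, 457 and 423 CPM) and Nnat were lower.

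Of 16 genes for proteins of the astrocyte endfoot, which surround brain vessels, 13 passed, 9 within 8-fold, 4 lower and 0 higher. Among all tested genes 8.22% were lower and 9.44% higher. The members called lower were Hepacam, Mlc1, Atp1b2 and Kcnj10, the last a potassium channel at 4.43 CPM against 48.8, 42.6 and 39.8 CPM. Dag1, dystroglycan, which anchors endfeet to laminin, was 584 CPM in WT-AST and 487, 469 and 489.6 CPM in WT-NSC (log2 ratio 0.28). Dmp1, the gene of the study (ENSMUSG00000029307, chromosome 5, 104202613 to 104214102, plus strand), had 2 counts in WT-AST and 18, 21 and 16 in WT-NSC and was 51.6-fold lower (95% counting interval 13.6 to 436). Its counts were few in both groups, its log2 ratio of -3.61 became -2.13 with a pseudocount of 2 CPM, and the S89G-DMP1 astrocyte library held 119. Spp1, osteopontin, which belongs to the same family of secreted acidic phosphoproteins, was higher (716 against 48.8, 60.9 and 45.4 CPM), and the family members Dspp, Ibsp and Mepe had 0 counts in all 4 libraries.

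Y-linked genes were lower in WT-AST. Xist, the RNA of the inactive X chromosome, had 12172 counts in WT-AST and 2864, 3001 and 2718 in WT-NSC, at a log2 ratio of -0.40 (0.15 under TMM scaling). The Y-linked Ddx3y, Eif2s3y and Uba1y had 0 counts in WT-AST, and WT-NSC held 65, 54 and 60 counts of Ddx3y, 86, 67 and 69 of Eif2s3y and 67, 58 and 68 of Uba1y. The S89G-DMP1 astrocyte library held 1277 counts of Ddx3y and 1 of Uba1y. WT-AST therefore carried Xist with at most 3 counts of any Y-linked gene of the list, and WT-NSC carried both, so that for sex-linked genes cell type and the sex of the mice cannot be told apart.

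Counts near 0 were checked against other libraries of the same table. Of 1161 genes called higher, 346 had 0 counts in all WT-NSC libraries and 703 at most 3 in each. Of these 703, 353 had a count in at least 1 S89G-DMP1 NSC library, 55 had more than 3 in one of them, and 265 had 0 in all 6 NSC libraries, 236 of which are protein-coding. Of 1010 genes called lower, 225 had at most 3 counts in WT-AST. The S89G-DMP1 astrocyte library held more than 3 counts of 161 of these and at least 50 of 69, while 64 had at most 3 in both astrocyte libraries, 20 of them pseudogenes. Pipeline and cell type cannot be told apart for genes that no library of a table counted. In 5 bins of gene length the median log2 ratio lay between -0.47 and -0.33, and the share called lower climbed from 5.70% in the shortest to 10.7% in the longest genes.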

How the data were processed

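RNA sequencing of the WT-AST library and the 3 WT-NSC libraries was compared, with groups taken from the sample labels and 0 columns left unmapped. For the astrocytes the authors deposited read counts and FPKM values made with TopHat2 2.0.9 on Bowtie2 2.0.6, and the counting program, build and annotation are not given in the sources used here. For the NSCs the authors deposited read counts and TPM values, and the submitters' processing notes name HISAT2, StringTie, featureCounts and GRCm38 without versions. Whether counting used strand is not given in the sources used here, so antisense and overlapping genes are uncertain.

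Counts of 40432 shared ids were scaled to CPM by library total, genes with at least 5 CPM in either group were tested (12294), and a log2 ratio with a pseudocount of 0.5 CPM was called at 8-fold. The floor was 3 counts, and 95% intervals are exact and cover counting error only. Depth was 14008670 counts in WT-AST and 2385557 to 2588130 in WT-NSC, and the median CV between WT-NSC libraries was 9.26%. Lists covered cell type markers, pathways and functions (45 lists), and the members and lists were chosen with earlier results of these data known. Genes are named where they define a marker list, are among the 6 of highest level or largest ratio in a list, are among the 10 of highest level or largest ratio over all genes, or are Dmp1. Other members named, such as Thy1, Fbln1, Pdgfra, Fbn2, Axin2, Srf and Vcl, and those given as the called members of a list, were chosen after their values were seen. Some genes that the rule names are not reported here.

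Alternatives were TMM and DESeq2 scaling, a total without abundant genes, other pseudocounts, filters and fold thresholds, leaving out each WT-NSC library, FPKM and TPM in place of counts, and edgeR 4.0.16 (quasi-likelihood, Benjamini-Hochberg adjustment, with limma 3.58.1) and DESeq2 1.42.0 fits that assume the lone WT-AST library varies like WT-NSC. Restricting to protein-coding genes was added after the data were seen. The steps were tested on simulated data, ran in Python 3.11.15 (pandas 2.3.3, numpy 2.4.6, scipy 1.17.1, matplotlib 3.10.9) and R 4.3.3, and symbols came from a table of Ensembl gene names, positions from GENCODE vM21 and promoters from RefSeq (GRCm38.p6).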

Additional observations from a re-analysis of the deposited data

Results flagged for a closer look

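Gria1, an AMPA receptor subunit, had a log2 ratio of astrocyte to NSC libraries of -5.20 in WT and of 3.18 in S89G-DMP1, each with 1 astrocyte library against 3 NSC libraries. It stood out because the ratio was beyond 8-fold in opposite directions in the 2 genotypes, and the difference was not tested.

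Ids found in only 1 of the 2 count tables were not part of any comparison. They held 0.0154% of the counts of WT-AST, and 0.305%, 0.322% and 0.290% of those of WT-NSC 1, 2 and 3. These were counts in data outside the comparison, and there are no control samples to set them against.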

How the results depend on the processing

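No paired analysis was possible because WT-AST is 1 library that shares no replicate number with the WT-NSC triplicate. The 1161 higher and 1010 lower genes became 1387 and 794 under TMM scaling and 1368 and 802 with DESeq2 size factors. With a pseudocount of 2 CPM 767 were higher and 696 lower. At 4-fold 1653 were higher and 1726 lower, at 16-fold 762 and 591, and at 32-fold 458 and 317. Leaving out each WT-NSC library gave 1161 to 1172 higher and 1000 to 1013 lower. With FPKM and TPM the numbers were 1148 and 994, in edgeR's fit 1462 and 878, in DESeq2's fit 1399 and 921, and among protein-coding genes 1099 and 936. edgeR's adjusted p was under 0.05 for 10217 of 12294 genes at any fold, with a spread taken from WT-NSC alone, so it says little of the calls. Of 165 named genes called, 156 were called under TMM scaling, 152 with a pseudocount of 2 CPM and 151 of 160 with FPKM and TPM, with 0 changes of sign. Among the genes named here, calls lost when 1 WT-NSC library was left out were Gfap (2.96) and mt-Atp8 (-2.99) without WT-NSC 1, Dhcr7 (-2.98) and mt-Atp8 (-2.95) without WT-NSC 2, and Gadd45b (2.68) without WT-NSC 3. Of the 34 lists with a median beyond 1, the Notch pathway changed sign at a filter of 20 CPM (0.076 in place of -1.31), and the cause was not tested. Mitochondrially encoded genes had a median of 0.24 over 12 genes by counts and of 9.06 over 4 by FPKM and TPM, and 8 of them were listed at 0 TPM despite at least 20 counts in each WT-NSC library. Depth of WT-NSC, and 1 library of WT-AST, limit these values: the spread of WT-AST is unknown, and small differences were not examined.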
